A study of Mus musculus with 6 samples.

Results

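Respiratory complex I, NADH:ubiquinone oxidoreductase, was followed through the transcripts of both genomes that encode it. The members were all genes of the table whose symbol is Nduf followed by a, ab, b, c, s, v or af and a number, together with ND1, ND2, ND3, ND4, ND4L, ND5 and ND6. This gave 52 of the 17525 genes listed: 37 nuclear subunit genes, 8 assembly factor genes (Ndufaf) and 7 mitochondrially encoded subunit genes. RNA came from cardiac fibroblasts of C57BL/6 mice aged 6 weeks, cultured without passage and labelled WT or Sipa1 knockdown. Both groups received a lentivirus, which carried either a scramble hairpin (3 samples) or a hairpin against Sipa1 with an EGFP reporter (3 samples), and both received 1 µg/ml lipopolysaccharide (LPS) 72 h later for 24 h. Sipa1 encodes a protein that inactivates Rap, a small GTPase. Whether replicates are independent cultures or mice, and whether infected cells were selected, is not in the labels, so the replicate spread behind each p-value may be purely technical. No uninfected or unstimulated cells were analysed here.

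Complex I is the entry point of electrons from NADH into the respiratory chain. Its hydrophilic arm holds the N module, which oxidizes NADH, and the Q module, which passes the electrons to ubiquinone. Its membrane arm pumps protons and is built around the ND proteins, which are made inside the mitochondrion, while every other subunit is imported. Assembly factors build the enzyme and are not part of the finished complex. Fibroblasts rely on glycolysis to a larger degree than heart muscle cells, but they keep a working respiratory chain.

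The libraries held 30930998 (scramble replicate 2) to 41839742 (scramble replicate 3) reads in genes. Levels within a gene are given as CPM (read counts relative to library size, scaled by TMM factors), and levels between genes as the authors' TPM, which accounts for transcript length. Sipa1 measured 41.0 to 43.7 CPM in scramble libraries, against 15.2 to 20.0 CPM after knockdown (log2 fold change -1.25, SE 0.075, edgeR adjusted p = 2.64e-11), with an exact two-sided permutation p of 0.1, the smallest that 3 against 3 samples allow. All 10 fibroblast markers were in the table, with a summed 13360 to 14150 TPM in scramble and 12460 to 13570 TPM in knockdown. Of these markers 3 fell (Tcf21, Pdgfra and Dcn) and 0 rose at an edgeR adjusted p under 0.05. That is 30.0%, near the 32.2% of all genes tested that passed in either direction, with 15.8% lower. Of 12 cardiomyocyte markers 8 had no row (Actc1, Myl2, Myl3, Nppa, Pln, Mb, Ckmt2 and Cox6a2), and a gene enters the table only with a read in every library.

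The 7 ND genes lie on the mitochondrial chromosome, and several touch or overlap. Their layout is shown because it limits how far neighbouring values are independent. ND4L and ND4 are carried by 1 bicistronic mRNA, and their coding sequences share 7 bases, printed in capitals in the first line. ND5 and ND6 face each other on opposite strands and share 14 bases at their ends, in capitals in the second line, which is read on the ND5 strand. The third line gives the end of ND4, whose lone capital T becomes a stop codon only when the poly(A) tail is added. Poly(A) tails were also the handle by which these libraries were selected. Sequences are from GENCODE M21 transcripts with RefSeq positions on GRCm38, plus strand.
ND4L-ND4 junction, chrM:10143-10197: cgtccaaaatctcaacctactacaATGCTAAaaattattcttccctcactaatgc
ND5-ND6 junction, chrM:13528-13589: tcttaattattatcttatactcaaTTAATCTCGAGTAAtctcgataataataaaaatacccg
ND4 end, chrM:11515-11544: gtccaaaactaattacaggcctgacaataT

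Of the 52 members, 11 rose and 3 fell in knockdown cells (edgeR quasi-likelihood test, Benjamini-Hochberg adjusted p under 0.05 over all 15954 genes tested). That is 26.9% of the members, against 32.2% of all genes tested, 16.4% higher and 15.8% lower. The complex as a whole was therefore not called more often than the background. By class, 3 of 7 ND genes, 6 of 37 nuclear subunits and 2 of 8 assembly factors rose, and the 3 that fell were all nuclear subunits. The median log2 fold change was 0.46 for the ND genes, 0.06 for nuclear subunits and 0.17 for assembly factors, beside 0.00 (-0.0013) for all genes tested. All members passed the expression filter, with at least 97 reads in every library. Leaving out scramble replicate 1, or knockdown replicate 2, or knockdown replicate 3 left 9 members higher and 0 lower. Without scramble replicate 3 there were 13 higher and 0 lower, and without scramble replicate 2 there were 11 and 3. Without knockdown replicate 1 there were 7 higher and 4 lower.

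**Figure D1:**
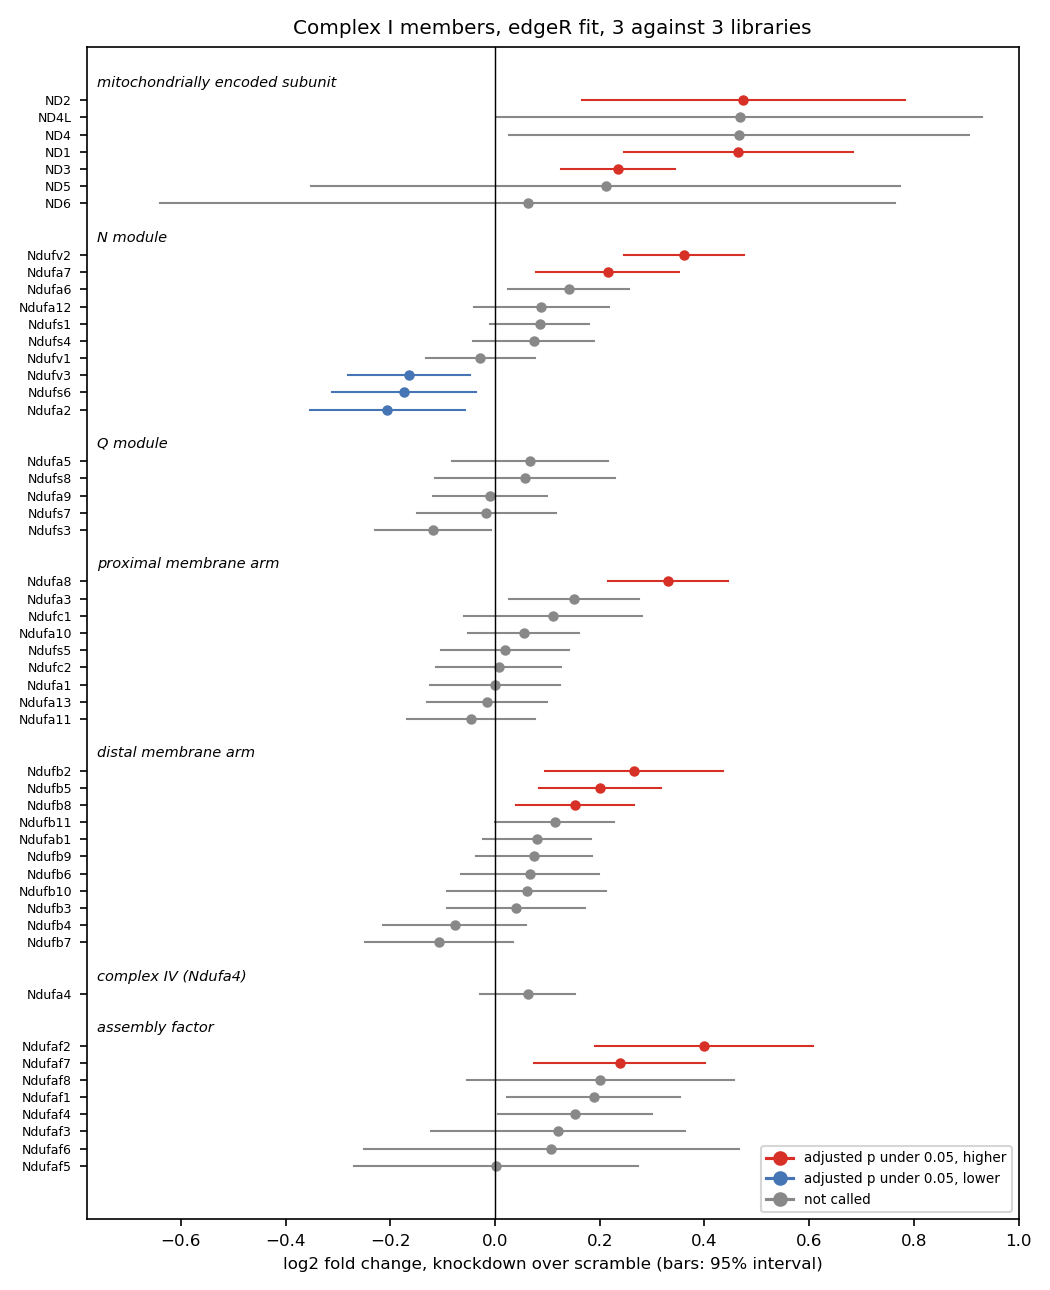
Log2 fold change of the complex I members described here, knockdown over scramble, with its 95% interval from the edgeR fit, grouped by structural module and coloured by call. ND1 to ND4L lie to the right of zero, most nuclear subunits lie close to zero, and the 3 genes that fell (Ndufv3, Ndufs6 and Ndufa2) are in the N module.

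ND1 and ND2, subunits of the membrane arm, rose to 1.38 and 1.39 times their scramble level, and ND3 rose by less. ND1, which forms part of the ubiquinone channel, measured 2102, 1691 and 2195 CPM in scramble replicates 1, 2 and 3 and 2552, 2932 and 2781 CPM in knockdown replicates 1, 2 and 3. All 3 knockdown libraries lay above all 3 scramble libraries, and scramble replicate 2 was the lowest. The log2 fold change of ND1 was 0.46 (SE 0.095, edgeR adjusted p = 0.00534). ND2, one of the antiporter-like proton pump subunits, went from 977, 754 and 1018 CPM to 1196, 1355 and 1270 CPM (log2 0.47, SE 0.12, edgeR adjusted p = 0.0334). The ND2 call was lost without knockdown replicate 1 (0.0625), 2 (0.0739) or 3 (0.0994), and with the replicate number as a block (0.124). ND3, a small subunit at the junction of the arms, went from 98.7, 103.5 and 103.2 CPM to 109, 129.9 and 120.4 CPM (log2 0.24, SE 0.052, edgeR adjusted p = 0.00129). Scramble replicate 2, the lowest library for ND1 and ND2, was not low for ND3.

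ND4 and ND4L had fold changes as large as that of ND1 but did not pass. ND4, another antiporter-like subunit, measured 1475, 1083 and 1587 CPM in scramble and 1774, 1989 and 1963 CPM in knockdown libraries (log2 0.47, SE 0.16, edgeR adjusted p = 0.106). ND4L, translated from the same mRNA, measured 210, 154 and 232.7 CPM and then 267.8, 287.3 and 271.2 CPM (log2 0.47, SE 0.17, edgeR adjusted p = 0.120). In both genes the groups did not overlap and scramble replicate 2 was again the lowest. Without scramble replicate 2 both passed at smaller fold changes, ND4 at 0.32 (edgeR adjusted p = 6.76e-05) and ND4L at 0.31 (3.62e-05). Without scramble replicate 3 they passed at 0.58 (0.0202) and 0.60 (0.0292). They also passed with a non-robust fit (7.20e-04 and 6.89e-04) and with DESeq2 (0.0235 and 0.0277). The reads of ND4L per 100 reads on ND4 stayed between 13.8 and 15.1 in all 6 libraries.

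ND5, the outermost pump of the membrane arm, and ND6, the light-strand gene, overlapped between groups. ND5 measured 2067, 1505 and 2176 CPM in scramble and 1847, 2565 and 2245 CPM in knockdown libraries (log2 0.21, SE 0.21, edgeR adjusted p = 0.529). ND6 measured 105.3, 77.8 and 106.7 CPM and then 74.1, 126.6 and 102.2 CPM (log2 0.06, SE 0.26, edgeR adjusted p = 0.893). Knockdown replicate 1 was low for both and scramble replicate 2 was low for both. The log2 value of ND5 was 0.06 without scramble replicate 2, 0.09 without knockdown replicate 2 and 0.33 without knockdown replicate 1. In human cells ND6 mRNA is known to lack a poly(A) tail, and the sources used here do not say how strand entered the counting, so reads of ND6 cannot be told apart from reads of the opposite strand at that locus. There were 4.0 to 5.2 reads on ND6 per 100 on ND5 in every library. The 95% intervals of ND5 (-0.35 to 0.77) and ND6 (-0.64 to 0.76) include changes as large as that of ND1.

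**Figure D2:**
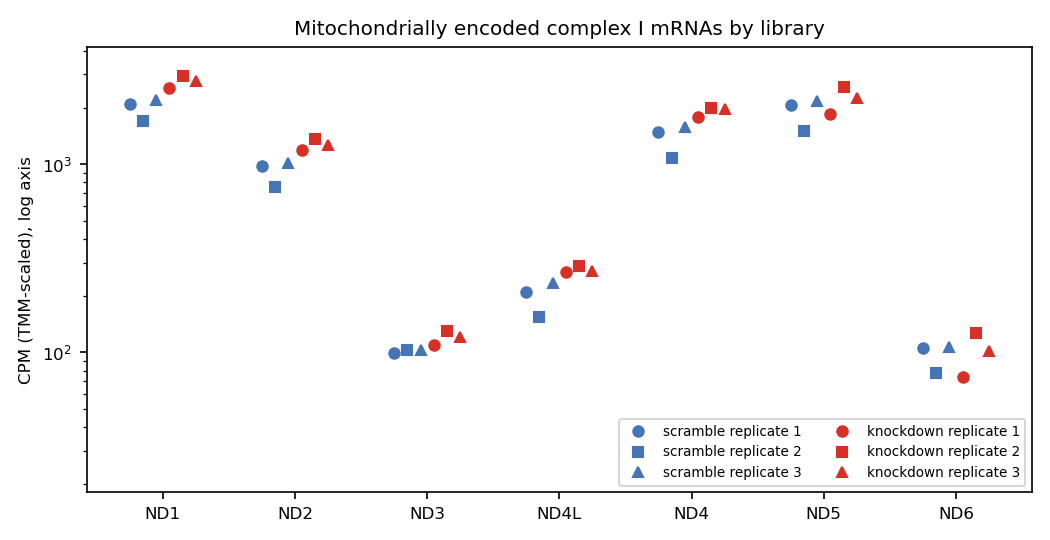
CPM (log axis) of the 7 mitochondrially encoded complex I genes in each library, in blue for scramble and red for knockdown, with the marker shape for the replicate number. The groups are separate for ND1, ND2, ND3, ND4L and ND4 and overlap for ND5 and ND6, where knockdown replicate 1 is low.

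Groups whose CPM ranges did not overlap were found for 5 of 7 ND genes, all higher in knockdown, where 22.4% of all genes tested were separated in that direction and 21.2% in the other. Of the 6 mitochondrial mRNAs of other complexes 2 rose and 0 fell, or 33.3%, near the 32.2% of all genes tested, with a median log2 fold change of 0.40. COX3 of complex IV rose by 0.31 (edgeR adjusted p = 0.00863) and ATP6 of the ATP synthase by 0.41 (edgeR adjusted p = 0.0186), the latter lost without knockdown replicate 3 (0.0607) and with the replicate block (0.0610). The other 4 mitochondrially encoded mRNAs, COX1, COX2, CYTB and ATP8, had log2 values of 0.37 to 0.43 and did not pass. Outside complex I the groups were also separate, higher in knockdown, for COX1, COX2, COX3, CYTB and ATP6, and overlapped for ATP8. The separation was thus not particular to the ND genes. Genes of the mitochondrial chromosome are not independent of each other, so the 5 separated ND genes are not 5 separate results. The 13 mitochondrial mRNAs together took 2.05%, 1.60% and 2.17% of the gene reads in scramble and 2.39%, 2.70% and 2.58% in knockdown libraries. Scaling by nuclear genes only gave the same number of ND calls, 3. In bulk RNA, a change in the number of cells of a type and a change in RNA per cell cannot be told apart, nor can mitochondrial DNA copies and mRNA per copy. Among markers of other cell types, the cardiomyocyte list summed to 38.7 to 41.3 TPM in scramble and 48.1 to 61.4 TPM in knockdown, almost all of it Tnnt2 (log2 0.44, edgeR adjusted p = 1.43e-04). The other 3 with a row, Myh6, Tnni3 and Ryr2, stayed under 1 TPM in every library. Of 6 smooth muscle and pericyte markers 2 fell, Cspg4 and Rgs5, and the list summed to 29.3 to 29.8 TPM and then 21.4 to 22.7 TPM. Of 9 macrophage markers 1 rose (Csf1r), and of 7 endothelial markers 2 rose (Kdr and Emcn) and 1 fell (Tek). The shares called were 11.1% for macrophage and 42.9% for endothelial markers. They were 33.3% for smooth muscle and pericyte markers and for the 3 cardiomyocyte markers tested, beside 32.2% of all genes tested. The part of these marker levels in the ND values was not tested.

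To separate a shared shift from changes among the mitochondrial mRNAs, each ND gene was also expressed as a share of the reads on all 13. By this measure ND5 and ND6 were lower in knockdown libraries and ND2 and ND4 slightly higher. The share of ND5 was 9.98%, 9.64% and 9.93% in scramble and 7.70%, 9.42% and 8.77% in knockdown libraries. That of ND6 was 0.508%, 0.498% and 0.487% in scramble and 0.309%, 0.465% and 0.399% in knockdown libraries. The groups did not overlap for either gene, and knockdown replicate 1 stood lowest. ND2 held 4.73% ± 0.092 in scramble and 4.97% ± 0.014 in knockdown libraries (SD, n = 3 each), and ND4 7.10% ± 0.15 and 7.46% ± 0.19, with no overlap. ND1, ND3 and ND4L overlapped. Outside complex I, COX3 was also lower without overlap, though by a very narrow gap. Its share was 6.292%, 6.817% and 6.293% in scramble and 6.289%, 5.786% and 6.103% in knockdown libraries. The shares of ATP6, ATP8, COX1, COX2 and CYTB overlapped. For ND3, scramble replicate 2 alone stood apart at 0.663%, against 0.471% and 0.476% in the other scramble libraries and 0.455% to 0.477% in knockdown. No test was run on these shares, which sum to a constant, so that a fall of one raises the others.

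**Figure D3:**
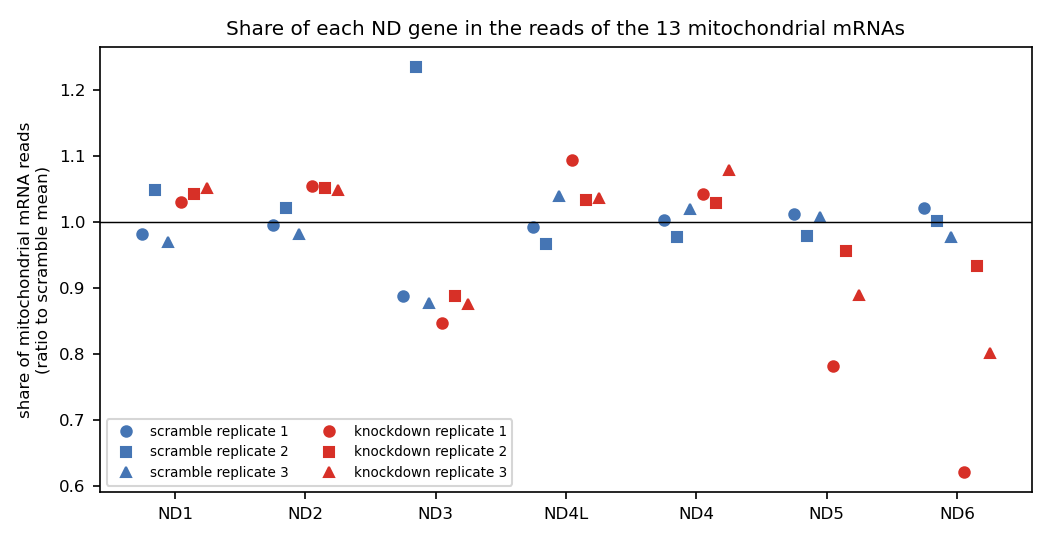
Share of each ND gene in the reads of the 13 mitochondrially encoded mRNAs, divided by its mean over the scramble libraries, in each library. ND5 and ND6 lie below 1 in all 3 knockdown libraries, lowest in knockdown replicate 1, and scramble replicate 2 stands apart for ND3.

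Among nuclear subunits, 2 of the 10 N module genes rose and 3 fell, where 16.4% of all genes tested rose and 15.8% fell. All 3 falls were lost in some fits that left out a library, so a split of the module was not a stable result. Ndufv2, an iron-sulfur core subunit next to the NADH site, went from 37.9, 36.8 and 40.8 CPM to 47.9, 51.7 and 48.9 CPM (log2 0.36, SE 0.055, edgeR adjusted p = 2.07e-05). Its groups were well apart and its call held in all 18 alternatives. Ndufa7, an accessory subunit of the same arm, rose from 47.0, 40.3 and 45.9 CPM to 56.8, 47.7 and 50.3 CPM (log2 0.22, SE 0.066, edgeR adjusted p = 0.0156). That call was lost without scramble replicate 2 (0.0883) or knockdown replicate 1 (0.1).

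Ndufv3, Ndufa2 and Ndufs6, all accessory, fell by small amounts. Ndufv3, which sits beside the flavin-carrying subunit, went from 44.5, 40.9 and 43.2 CPM to 40.6, 37.6 and 36.7 CPM (log2 -0.16, SE 0.056, edgeR adjusted p = 0.0279). Ndufa2, a thioredoxin-like subunit, went from 40.4, 36.6 and 41.6 CPM to 38.2, 30.4 and 34.5 CPM (log2 -0.21, SE 0.071, edgeR adjusted p = 0.0312), with overlap between groups. Ndufs6, a zinc-binding subunit added late in assembly, went from 25.8, 24.7 and 26.1 CPM to 24.2, 22.8 and 20.9 CPM (log2 -0.17, SE 0.067, edgeR adjusted p = 0.0492). All 3 falls were lost without scramble replicate 1 (Ndufv3 0.136, Ndufa2 0.0973, Ndufs6 0.131), scramble replicate 3 (0.0818, 0.138, 0.148), knockdown replicate 2 (0.0691, 0.168, 0.0744) or knockdown replicate 3 (0.131, 0.0791, 0.243). Ndufs6 was also lost with DESeq2 (0.0709) and with no expression filter (0.0686), and Ndufa2 with no expression filter (0.0504) and with limma on FPKM (0.0620 to 0.114). The partners of Ndufv2 in NADH oxidation, Ndufv1, which binds the flavin (log2 -0.03, SE 0.050), and Ndufs1, the largest iron-sulfur subunit (0.09, SE 0.046), did not pass.

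In the Q module, Ndufs3, a core subunit, measured 45.7, 43.9 and 45.5 CPM in scramble and 43.7, 40.3 and 40.6 CPM in knockdown libraries (log2 -0.12, SE 0.053, edgeR adjusted p = 0.0965). Its groups were separate, by a narrow gap between scramble replicate 2 and knockdown replicate 1. Of the 7 core catalytic nuclear subunits 1 rose (Ndufv2) and 0 fell, or 14.3%. Of the 29 accessory subunits 5 rose and 3 fell, or 27.6%. Both shares lie below the 32.2% called among all genes tested.

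In the membrane arm, Ndufa8 was the only one of 9 proximal genes to pass (11.1%, beside 32.2% of all genes tested). Ndufa8, a subunit held by disulfide bonds on the intermembrane side, went from 38.3, 35.8 and 36.1 CPM to 48.9, 45.2 and 44.5 CPM (log2 0.33, SE 0.055, edgeR adjusted p = 6.45e-05), with separate groups and a call that held in all 18 alternatives. Ndufa3, its neighbour in this arm, lay near the threshold (log2 0.15, SE 0.060, edgeR adjusted p = 0.0585), as did Ndufa6 of the N module (0.14, SE 0.055, edgeR adjusted p = 0.0570). In the distal arm 3 of 11 genes rose and 0 fell, or 27.3%, also below the 32.2% of all genes tested. Ndufb5 went from 32.6, 34.7 and 36.4 CPM to 39.3, 40.4 and 39.6 CPM (log2 0.20, SE 0.056, edgeR adjusted p = 0.00788), lost without scramble replicate 1 (0.0695). Ndufb2 rose by 0.27 (SE 0.082, edgeR adjusted p = 0.0156), lost without scramble replicate 3 (0.0994) or knockdown replicate 1 (0.0795) or 3 (0.0658). Ndufb8 rose by 0.15 (SE 0.054, edgeR adjusted p = 0.0344), lost without scramble replicate 2 (0.184) or knockdown replicate 1 (0.149) or 3 (0.0763). DESeq2 (0.0510) and limma on FPKM (0.0776 to 0.115) did not call Ndufb8 either.

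The other 28 nuclear subunits did not pass, with 95% intervals that lay between -0.25 (Ndufb7) and 0.28 (Ndufc1) on the log2 scale, or 0.842 to 1.21 times the scramble level. Each interval was drawn for its gene alone and rests on a replicate spread that may be purely technical. Larger changes of single subunits are therefore not excluded. The most abundant nuclear member was Ndufa4, at 450 TPM on average over the 6 libraries, which structural work later placed in complex IV. It measured 92.7 to 98.2 CPM in scramble and 98.3 to 100.1 CPM in knockdown libraries (log2 0.06, SE 0.044, edgeR adjusted p = 0.303). Ndufa3 (241 TPM) and Ndufa7 (208 TPM) followed. Ndufb4, Ndufs5 and Ndufab1 have close copies listed as Ndufb4b and Ndufb4c, Ndufs5-ps and Ndufab1-ps, so the split of reads between copies is uncertain, and nuclear copies of mitochondrial DNA raise the same doubt for ND genes. The mouse gene for subunit B1 is listed as Ndufb1-ps and falls outside the name rule. It rose by 0.14 (SE 0.053, edgeR adjusted p = 0.0460) with separate groups, and its call was not followed through the alternatives. Ndufa4l2, a hypoxia-induced relative of Ndufa4 and also no member, rose by 0.30 (SE 0.10, edgeR adjusted p = 0.0307), lost without scramble replicate 2 (0.141) or knockdown replicate 1 (0.0832) or 2 (0.175).

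**Figure D4:**
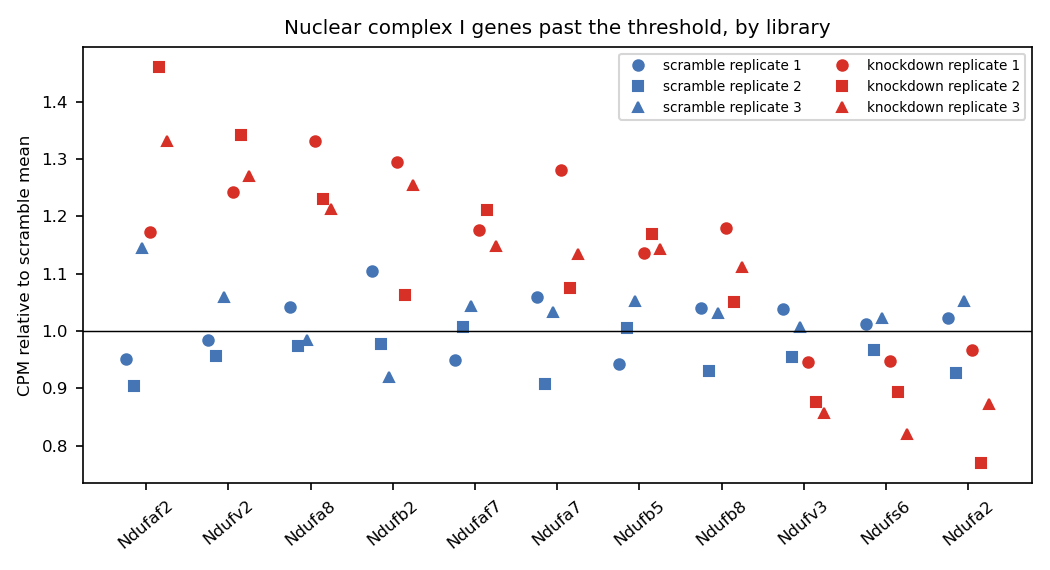
CPM of the 11 nuclear genes past the threshold, divided by the mean of the scramble libraries, in each library. Ndufv2 and Ndufa8 show the widest gaps between groups, the groups of Ndufb8, Ndufv3, Ndufa7, Ndufs6 and Ndufaf2 nearly meet, and for Ndufb2 and Ndufa2 the groups overlap.

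The promoters of Ndufa8 and Ndufv2, the nuclear subunits with the smallest adjusted p, are shown from 250 bases before to 50 bases after the RefSeq start (GRCm38, minus strand), with capitals for 3 motifs searched on both strands: TGCGCA (core of the NRF1 site), CCGGAAG (ETS family, as for GABPA) and AAGATGGC (YY1). These factors are known regulators of nuclear genes for respiratory subunits.
Ndufa8, chr2:36049289-36049588: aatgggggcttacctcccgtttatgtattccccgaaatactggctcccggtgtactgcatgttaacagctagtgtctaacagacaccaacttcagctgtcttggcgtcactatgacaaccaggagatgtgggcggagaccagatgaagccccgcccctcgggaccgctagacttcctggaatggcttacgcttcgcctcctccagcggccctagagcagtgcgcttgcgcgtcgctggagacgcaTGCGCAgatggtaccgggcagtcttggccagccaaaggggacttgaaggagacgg
Ndufv2, chr17:66101510-66101809: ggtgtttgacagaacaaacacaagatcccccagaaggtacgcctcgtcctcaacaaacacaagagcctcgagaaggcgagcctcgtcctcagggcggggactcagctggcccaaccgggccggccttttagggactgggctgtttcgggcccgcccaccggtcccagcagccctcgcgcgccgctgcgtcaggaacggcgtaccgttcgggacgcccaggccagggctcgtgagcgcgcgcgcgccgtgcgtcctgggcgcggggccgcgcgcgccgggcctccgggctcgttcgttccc

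Ndufa8 holds the NRF1 core and Ndufv2 none of the 3 motifs. RefSeq promoters were matched for 40 members (42 promoters). Of these, 12 hold TGCGCA (28.6%, against 7.76% of 32851 mouse promoters of all gene types), 6 hold CCGGAAG (14.3% against 8.86%) and 8 hold AAGATGGC (19.0% against 2.75%). Among the 9 promoters of genes that rose, 2 hold TGCGCA, 0 hold CCGGAAG and 1 holds AAGATGGC. Among the 2 of genes that fell 1, 0 and 1 do, and among the 31 of genes not called 9, 6 and 6 do. A match is only a description of the letters in these windows.

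Assembly factor transcripts were scarce, at 5.12 to 39.7 TPM (median 12.8), against a median of 117 TPM for nuclear subunits and 2430 TPM for ND genes. Ndufaf2, which holds the place of a late N module subunit during assembly, went from 9.63, 9.16 and 11.6 CPM to 11.9, 14.8 and 13.5 CPM (log2 0.40, SE 0.10, edgeR adjusted p = 0.00358). The groups of Ndufaf2 were separate, though knockdown replicate 1 lay close to scramble replicate 3, and the call held in all 18 alternatives. Ndufaf7, a methyltransferase, went from 11.7, 12.4 and 12.8 CPM to 14.5, 14.9 and 14.1 CPM (log2 0.24, SE 0.079, edgeR adjusted p = 0.0240), lost without scramble replicate 1 (0.112) or knockdown replicate 2 (0.0854). Ndufaf1 (0.19, SE 0.080, edgeR adjusted p = 0.0768), a factor of membrane arm assembly, and Ndufaf4 (0.15, SE 0.071, edgeR adjusted p = 0.108), an early factor, had separate groups without passing. Ndufaf8, the second in abundance among them at 26.4 TPM, stood at 0.20 (SE 0.12, edgeR adjusted p = 0.233). Ndufaf3 (0.12), Ndufaf6 (0.11) and Ndufaf5 (0.00, or 0.0021) did not pass either.

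Summed over their members, ND transcripts and assembly factor transcripts had knockdown libraries that all lay above the scramble ones, and nuclear subunit transcripts did not. ND genes summed to 14895, 12230 and 15799 TPM in scramble and 16932, 20242 and 19061 TPM in knockdown libraries, a ratio of means of 1.31. Nuclear subunits summed to 4684, 4662 and 4665 TPM and then 4903, 4578 and 4777 TPM, a ratio of 1.02. Assembly factors summed to 121.7, 126.0 and 130.1 TPM and then 144.8, 152.6 and 146.2 TPM, a ratio of 1.17. The means of that sum were 126.0 and 147.9 TPM, of which Ndufaf2 alone held 34.5 and 45.0 TPM. Much of the rise of the sum thus lay in a single gene. The summed TPM of ND genes over that of nuclear subunits was 3.18, 2.62 and 3.39 in scramble and 3.45, 4.42 and 3.99 in knockdown libraries. Knockdown replicate 1 and scramble replicate 3 nearly met in this ratio. With CPM in place of TPM, the log2 ratio of means was 0.39 for the ND sum and 0.35 for the ND to nuclear ratio. Left-out libraries gave 0.26 to 0.48 and 0.24 to 0.44 for them.

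**Figure D5:**
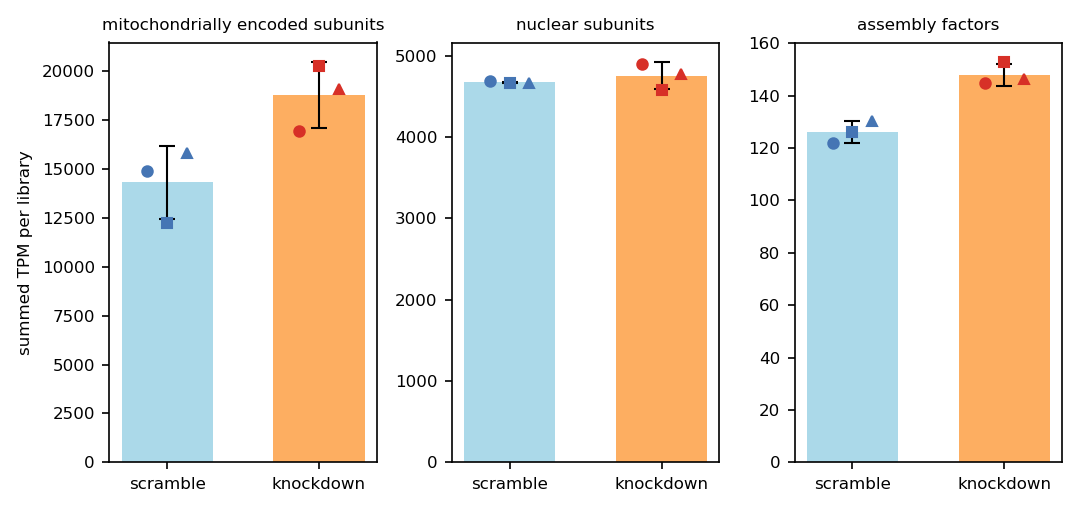
Summed TPM per library of the 7 ND genes, the 37 nuclear subunits and the 8 assembly factors, with bars for the mean and error bars for the SD of 3 libraries. The knockdown libraries lie above all scramble libraries for ND genes and assembly factors, while the groups overlap for nuclear subunits.

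Genes that serve complex I under other names were called at 16.7% for assembly factors and 19.2% for mitochondrial transcription and RNA stability, beside 32.2% of all genes tested. Of 12 such assembly factor genes, 2 rose and 0 fell. Chchd4, which imports and oxidizes disulfide-bonded proteins such as Ndufa8, rose from 12.3 ± 0.40 to 16.4 ± 1.73 CPM (SD, n = 3 each; log2 0.41, SE 0.085, edgeR adjusted p = 5.91e-04), in all 18 alternatives. Aifm1, the partner of Chchd4, rose by 0.15 (edgeR adjusted p = 0.0317), lost without any of the 3 scramble replicates (0.111, 0.0531 and 0.0714) or without knockdown replicate 2 (0.0974) or 3 (0.106). Of 26 genes of mitochondrial transcription and RNA stability 4 rose and 1 fell. The RNA-degrading enzyme gene Pnpt1 rose by 0.24 (edgeR adjusted p = 0.00706), lost without scramble replicate 3 (0.0604) or knockdown replicate 2 (0.0786), and the DNA polymerase gene Polg by 0.18 (edgeR adjusted p = 0.00900), lost without scramble replicate 1 (0.0527). Both were also lost with limma on FPKM, at 0.0573 to 0.107 for Pnpt1 and 0.0877 to 0.138 for Polg. Ssbp1, which coats single-stranded mitochondrial DNA, fell by 0.26 (edgeR adjusted p = 0.00803). The medians of these lists were 0.12 and 0.05.

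Of 12 nuclear regulators of mitochondrial genes 3 rose and 1 fell, with a median of 0.03. That is 33.3%, near the 32.2% of all genes tested. Nfe2l2, the antioxidant regulator, rose from 254 ± 6.83 to 335 ± 6.09 CPM (SD, n = 3 each; log2 0.40, edgeR adjusted p = 9.43e-08), Tfeb, a regulator of lysosomal genes, by 0.82 (edgeR adjusted p = 1.57e-04), and Myc fell by 0.17 (edgeR adjusted p = 0.00908). The third riser was the coactivator gene Ppargc1a, named outside the rule after its values were seen, at 0.852 ± 0.27 CPM in scramble libraries and 1.52 ± 0.17 CPM after knockdown (SD, n = 3 each; log2 0.82, edgeR adjusted p = 0.0152). Its level was very low, at 0.273 TPM on average over all libraries, and its call was not followed through the alternatives.

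The authors' deposited table calls 12 members higher and 2 lower at its own adjusted p under 0.05, where 30.4% of all genes with such a p are called in either direction. In it ND4 (0.0240) and ND4L (0.0283) pass, and Ndufb8 (0.0521) and Ndufs6 (0.0724) do not.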

How the data were processed

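The 6 samples (3 scramble, 3 knockdown, grouped by title, all in batch 1 per the labels) share a single table, deposited 6 times. Poly(A)-selected, strand-specific libraries were read as paired ends, per the labels' protocols. The submitters' processing notes list HISAT2, StringTie and mm10 and give no version. The authors deposited whole-number read counts per gene, not normalized, with FPKM and TPM values. The authors' other deposited columns are normalized log2 values and SE, a mean signal of normalized counts, a signed fold score, a test statistic score and p-values. No source used here names the program behind them.

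Counts were fitted with edgeR 4.0.16 (R 4.3.3): default expression filter, TMM, robust quasi-likelihood test on group, two-sided, Benjamini-Hochberg over 15954 genes, threshold 0.05. SE is the log2 fold change over the root of F. CPM is a count over the TMM-scaled library size. Alternatives were RLE factors, library size only, scaling by nuclear genes, no filter, 1 CPM in 3 libraries, DESeq2 1.42.0, limma 3.58.1 (voom, or log2(FPKM + 1) or log2(FPKM + 0.1) with mean FPKM of at least 0.5 in a group, and log2(FPKM + 1) unfiltered), a non-robust fit, a replicate block and each library left out.

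Members and lists were chosen with earlier results of these data known. Named genes were Sipa1, all ND genes, members past the threshold or within 0.02 of it, the 3 most abundant nuclear subunits and assembly factors, and up to 2 rising and 2 falling genes of each list. Other members are named to complete their class. One result is not reported here. Fibroblast, cardiomyocyte, macrophage, endothelial and mural markers were summed. Macrophage markers came to 239 to 258 TPM in scramble and 248 to 261 TPM in knockdown, endothelial ones to 123 to 143 and 130 to 139 TPM, and smooth muscle and pericyte ones to 29.3 to 29.8 and 21.4 to 22.7 TPM.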

Additional observations from a re-analysis of the deposited data

How the results depend on the processing

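All directions of the called members held in the 18 alternatives. ND6, not called, changed sign without scramble replicate 2 (-0.07) and without knockdown replicate 2 (-0.14), and reached 0.24 without knockdown replicate 1. Calls of mitochondrially encoded subunits numbered 5 in place of 3 with DESeq2, limma-voom, a non-robust fit and limma on filtered FPKM with either pseudocount, and 2 to 5 when a library was left out; the cause was not tested. Leaving out a library gave 9 to 14 called members, 5 to 7 nuclear subunits against 9, and 1 to 2 assembly factors against 2, with fewer samples in the fit. Unfiltered limma on log2(FPKM + 1) called 1 assembly factor and lost ND3 (0.0607), Ndufa7 (0.0659), Ndufb2 (0.0810), Ndufaf7 (0.0795) and Ndufa4l2 (0.0728). The summed level of assembly factors moved from 0.20 to 0.23 (log2 ratio of means) with TPM in place of CPM, and left-out libraries gave 0.19 to 0.21 for it. The replicate block called 5307 genes against 5139 and 15 members against 14. It lost ND2 and, outside complex I, ATP6 (0.0610), and passed Ndufa3 (0.0299) and Ndufa6 (0.0490). Same-numbered libraries did not deviate together (r = 0.004, -0.009 and -0.010). Whether same-numbered samples share an origin is not in the labels, and this check cannot decide it. Depth limits the assembly factors most, with 97 reads for Ndufaf6 in its lowest library.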
